A study of Homo sapiens with 8 samples.

Results

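The 46 genes described here encode proteins that hepatocytes secrete into blood plasma. They were grouped as carriers, apolipoproteins, complement, coagulation, and acute phase and protease inhibitors. A group name is a label for counting and need not fit each protein, as for FGL1 under coagulation and VTN under carriers. The 46 genes were taken by name from the 20037 protein-coding genes of RefSeq GRCh38.p14. No measured value served as a criterion, but earlier results of these data were known when they were chosen. They fall into 34 stretches of genome when windows from 100 kb before to 100 kb after each gene are merged, and 7 of these stretches hold more than 1 of the genes. Genes of 1 stretch share their surroundings and are not independent of each other.

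Flag ChIP-seq maps where a Flag-tagged protein sits on chromatin. Huh7, an established human hepatocellular carcinoma line, was used with ARID1A knocked out in every group, so the protein detected came from a stable lentiviral construct, and its level relative to native ARID1A is not given in the sources used here. The 3 groups were cells with Flag-tagged wild-type ARID1A (WT), cells with the V2084D mutant, and cells with the V2084D mutant plus knockdown of STUB1, a ubiquitin ligase. Each group had 2 ChIP libraries with a deposited peak list. Whether the paired libraries are separate cultures or clones is not given in the sources used here, so the spread between them may be technical. The 2 WT input libraries are not analysed here. Files on expression are not used here, so the hepatocyte identity of the cells was not checked against marker RNA.

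ARID1A binds DNA as part of the SWI/SNF remodelling complex, which moves nucleosomes at promoters and enhancers. Genes of liver plasma proteins are transcribed at high rates in hepatocytes under factors such as HNF1, HNF4, FOXA and C/EBP, acting on short promoters and on enhancers that can lie far from the gene. The question addressed was whether WT ARID1A sits at such distal sites where the ends of the genes themselves are empty.

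A WT region was a site where peaks of both WT libraries overlapped by at least 1 bp, and its fold enrichment, the authors' value per peak, is given for WT library 1 and then library 2. An end was called occupied when a WT region lay within 10 kb of the annotated start or end of the gene, and a region was in reach when it lay from 100 kb before to 100 kb after the gene. The WT lists held 27587 and 26515 peaks, the V2084D lists 6000 and 12384, and the lists with STUB1 knockdown 8904 and 6663. Read depth is unknown from peak lists, and so an empty place means only that no peak was listed there.

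Few of these genes had WT ARID1A at their ends. A WT region lay within 10 kb of an end for 11 of 46 genes (23.9%), against 61.5% of all protein-coding genes. The 11 were TF and VTN among 11 carriers, APOA1, APOA2, APOA5, APOC1, APOC2, APOC3, APOE and APOM among 11 apolipoproteins, and C5 among 3 complement genes. None of the 13 genes grouped under coagulation and none of the 8 acute-phase and protease inhibitor genes had one. In each WT library taken alone, 13 and 17 of the 46 genes had a peak at an end, or 28.3% and 37.0%, against 69.3% and 68.4% of all genes. The members' share lay below that of all genes with either library.

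The other protein-coding genes around them were not empty in the same way. The windows of the 46 genes hold 160 other protein-coding genes, and an end was occupied in 98 of those (61.3%). Without the 12 neighbours that belong to the lists of other liver genes used below, the share was 65.5% of 148. The members and all protein-coding genes had the same median number of protein-coding neighbours, 4. The members were shorter, with a median of 13.7 kb against 24.1 kb. Whether gene length plays a part in the difference was not tested.

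**Figure D1:**
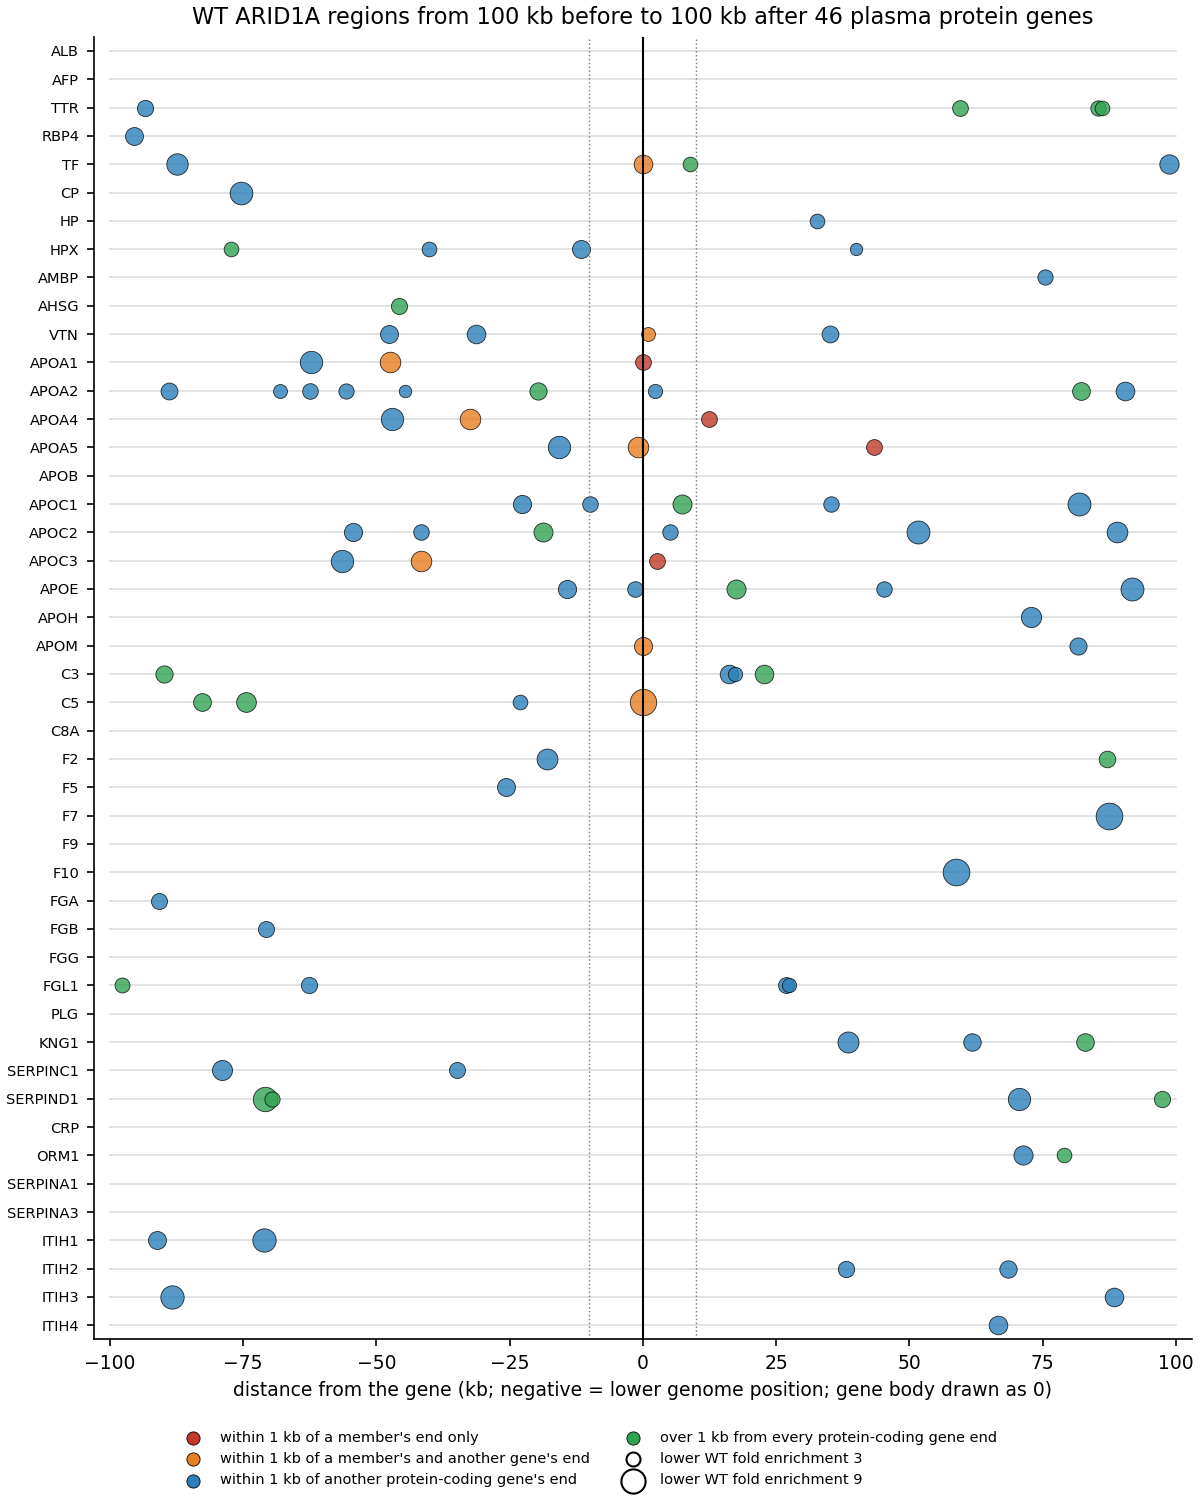
Each row is 1 of the 46 genes and each point a WT region within 100 kb of it, at its distance in kb (negative toward lower genome positions, the gene body drawn as 0). Point size is the lower of the 2 WT fold enrichments, colour shows whose annotated end lies within 1 kb, and dotted lines mark 10 kb. Points within the dotted lines are present for 11 genes, and 10 rows hold no point.

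The contrast was also visible at transcript starts. RefSeq promoter sequences, from 250 bases before to 50 bases after a start, were listed for 36 of the 46 genes, as 48 promoters. A WT region overlapped a listed promoter of only TF and C5, 2 of 36 genes, against 52.4% of 15843 protein-coding genes with a listed promoter. Over all 22199 promoters, those with a WT region held a median of 28 CG dinucleotides and those without held 8. A comparison of CG content over the whole group is void, because 78.3% of its members have a promoter in the table. The promoters of TF and C5, the 2 that carried a WT region, are shown with those of ALB, AFP and FGB, which carried none, to let their sequences be compared. All are RefSeq GRCh38.p14, written 5′ to 3′ along the gene, with CG dinucleotides in capitals.
TF, chr3:133661748-133662047, plus strand: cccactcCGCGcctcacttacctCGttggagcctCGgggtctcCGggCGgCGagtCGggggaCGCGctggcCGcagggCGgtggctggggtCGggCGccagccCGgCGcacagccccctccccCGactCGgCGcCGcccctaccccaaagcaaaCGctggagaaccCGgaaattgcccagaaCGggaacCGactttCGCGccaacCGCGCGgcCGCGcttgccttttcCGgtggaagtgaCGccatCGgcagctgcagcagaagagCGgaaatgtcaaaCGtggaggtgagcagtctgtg
C5, chr9:121074816-121075115, minus strand: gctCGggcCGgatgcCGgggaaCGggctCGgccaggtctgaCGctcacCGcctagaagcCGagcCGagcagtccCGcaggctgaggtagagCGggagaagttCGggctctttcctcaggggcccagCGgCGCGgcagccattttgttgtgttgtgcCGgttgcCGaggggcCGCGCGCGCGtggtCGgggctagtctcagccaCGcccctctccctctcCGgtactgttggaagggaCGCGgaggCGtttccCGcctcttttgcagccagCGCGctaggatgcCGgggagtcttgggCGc
ALB, chr4:73404037-73404336, plus strand: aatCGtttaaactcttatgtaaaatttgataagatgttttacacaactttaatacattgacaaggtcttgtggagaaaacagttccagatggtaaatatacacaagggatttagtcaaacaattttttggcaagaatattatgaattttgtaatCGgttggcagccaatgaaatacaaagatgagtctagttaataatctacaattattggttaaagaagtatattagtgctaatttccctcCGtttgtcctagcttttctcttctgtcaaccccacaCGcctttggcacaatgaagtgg
AFP, chr4:73435971-73436270, plus strand: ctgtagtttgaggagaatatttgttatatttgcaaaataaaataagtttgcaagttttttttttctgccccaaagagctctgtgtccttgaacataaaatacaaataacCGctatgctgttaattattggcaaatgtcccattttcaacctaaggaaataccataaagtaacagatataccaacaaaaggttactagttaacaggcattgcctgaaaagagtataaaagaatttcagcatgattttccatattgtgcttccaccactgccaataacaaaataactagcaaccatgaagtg
FGB, chr4:154562730-154563029, plus strand: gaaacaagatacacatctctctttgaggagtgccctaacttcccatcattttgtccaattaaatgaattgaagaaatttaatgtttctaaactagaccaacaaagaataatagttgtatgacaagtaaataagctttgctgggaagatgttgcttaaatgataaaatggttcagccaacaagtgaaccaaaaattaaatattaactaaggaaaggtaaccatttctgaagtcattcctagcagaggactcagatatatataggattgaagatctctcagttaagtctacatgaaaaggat

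The TF promoter held 36 CG dinucleotides and the C5 promoter 33, and 69.3% of the bases of each were G or C. ALB held 4, AFP 1 and FGB none, with 33.3%, 33.0% and 32.7% G or C. ALB, AFP and FGB had the lowest G or C shares of the genes listed and do not stand for the rest. Listed promoters without a WT region ranged from 32.7% (FGB) to 76.0% G or C (RBP4). Between them lay FGA (47.0%, 2 CG dinucleotides), ITIH4 (53.7%, 5) and AMBP (61.7%, 6). CG content and WT occupancy did not always go together: a listed RBP4 promoter with 42 CG dinucleotides had no WT region. TF and C5 each have a second listed promoter without a WT region, with 23 and 1 CG dinucleotides. The WT regions over the TF and C5 promoters also lay within 1 kb of ends of other protein-coding genes, including TOPBP1 and CNTRL in that order. The contrast with ALB, AFP and FGB is thus not one between promoters of plasma protein genes alone.

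Both strands of the promoters were searched for 5 motifs. TATAAA is the core of the element bound by the TATA-binding protein. GTTAAT is one arm of the palindrome bound by HNF1. TTGCNNAA is bound by C/EBP proteins, TGANTCA by AP-1 and CCAAT by NF-Y. Matches to different motifs may overlap. Of all promoters, 9.47%, 5.55%, 8.69%, 6.15% and 34.7% held them in that order. Of the 48 promoters of the plasma protein genes, 8, 12, 11, 3 and 23 did. The 48 belong to 36 genes and some overlap, so the same site can be counted more than once. This holds for the HNF1 arms of FGB and PLG, the C/EBP and CCAAT matches of FGB, and a TATA match of RBP4. The ALB promoter held an HNF1 arm whose first base lies at -61 from the start, a C/EBP match at -125 and CCAAT matches at -86 and -44. AFP held a TATA match at -29, an HNF1 arm at -132, a C/EBP match at -221 and CCAAT matches at -125 and 19. FGB held an HNF1 arm at -51, a C/EBP match at -101 and a CCAAT match at -196. The promoters of TF and C5 with a WT region held none of the 5 motifs. The other listed promoters of these genes, without a WT region, did hold matches. For TF these were a CCAAT match at -99 and a C/EBP match at -98. For C5 they were a CCAAT match at -113 and an HNF1 arm at -66. These matches describe the letters only.

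The regions at the 11 occupied ends lay mostly where another gene also ends. Of the 11 WT regions within 10 kb of a member, 5 were within 1 kb of both a member's end and another protein-coding gene's end, 3 were within 1 kb of another gene's end alone, and 2 were over 1 kb from every protein-coding end. Both of these 2 were within 1 kb of an end of a gene that is not protein-coding. The remaining region was within 1 kb of a member's end alone, that of APOA1. Together 81.8% of the 11 were within 1 kb of a protein-coding end, against 61.4% of all 15876 WT regions on assembled chromosomes. The 11 were limited to the surroundings of a gene and the 15876 were not. The share at another gene's end was not computed for regions near all protein-coding genes, so it is not shown to be particular to these genes.

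C5, the complement component whose cleavage starts the membrane attack complex, had the strongest of these. The region chr9:121074360-121075900 covered the outermost listed start of C5, with folds of 10.7 and 10.8, and an end of CNTRL lay within 1 kb. It was the 1 region of the 11 with a peak in all 4 mutant libraries, at folds of 5.26 and 4.22 in the V2084D libraries and of 5.96 and 4.41 in those with STUB1 knockdown. The promoter at the other listed start of C5, 121050275 inside the gene, had no WT region. Folds are values within a library and are not compared between libraries.

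TF encodes transferrin, the iron carrier of plasma. The region chr3:133661266-133662418 lay over its first listed promoter and beside an end of TOPBP1, with folds of 8.09 and 5.36. No mutant library had a peak over it. The promoter at the other listed start of TF, 133746393 inside the gene, had no WT region. A second WT region lay 8.85 kb past the other end of TF, within the gene SRPRB, with folds of 3.31 and 4.88.

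VTN encodes vitronectin, a cell adhesion protein of plasma. Its region, chr17:28371256-28372457, lay 0.949 kb from VTN beside an end of SARM1, with folds of 2.98 and 6.31 and no mutant peak. A different site, 9.51 and 9.67 kb from VTN, had peaks in both STUB1 knockdown libraries. V2084D library 1 had a peak there at 9.43 kb and WT library 1 at 9.57 kb, and WT library 2 and V2084D library 2 had none.

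Apolipoproteins package and steer lipids in lipoprotein particles, and 8 of the 11 genes had an occupied end. These rested on 7 regions in 4 gene neighbourhoods. In the APOA1 cluster, chr11:116835706-116836573 lay over the lower-coordinate end of APOA1, the main protein of high-density lipoprotein, with folds of 3.84 and 4.78. It was also 2.63 kb from APOC3, an inhibitor of lipoprotein lipase. This region had peaks in both V2084D libraries and in STUB1 knockdown library 1. The region chr11:116787609-116788378, with folds of 6.48 and 6.70, lay 0.989 kb from APOA5, which promotes triglyceride clearance, and beside an end of ZPR1. APOA4, in the same cluster, had no occupied end, and its nearest region was the one at APOA1, 12.4 kb away.

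In the APOE cluster, the region 1.42 kb from APOE, the ligand for lipoprotein uptake into the liver, lay beside an end of TOMM40, with folds of 3.74 and 3.96. The region nearest APOC1, with folds of 5.56 and 5.82, was 7.44 kb away and over 1 kb from every protein-coding end. It lay at an annotated end of a gene that is not protein-coding. APOC2, the activator of lipoprotein lipase, was 5.12 kb from a region within CLPTM1, with folds of 3.67 and 5.92. APOA2 was 2.22 kb from a region at an end of TOMM40L, with folds of 4.69 and 3.13. APOM, the lipoprotein carrier of sphingosine 1-phosphate, had a region at its annotated lower end and at an end of BAG6, with folds of 5.05 and 5.29. No listed promoter of an apolipoprotein gene held a WT region, with promoters listed for 8 of the 11 genes and none for APOA1, APOB and APOC3.

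Distal WT regions were present in reach of most genes with empty ends, but most of them lay at other genes. In reach of any of the 46 genes were 75 WT regions, and 36 genes (78.3%) had at least 1, against 84% of all protein-coding genes. Of the 35 genes with empty ends, 25 (71.4%) had a WT region in reach, against 58.5% of the 7712 protein-coding genes with empty ends. The 35 had a median of 4 protein-coding neighbours and the 7712 a median of 3. Whether the number of neighbours plays a part was not tested. For 16 of those 25 genes, every region in reach was within 1 kb of another protein-coding gene's end. Of the 7712 genes with empty ends, 4512 had a region in reach. Among those 4512, 2467 had a region over 1 kb from every protein-coding end, and the rest had regions at such ends only. A region over 1 kb from every protein-coding end was in reach of 9 of the 35 (25.7%), against 32%. One over 10 kb from every such end was in reach of 5 (14.3%), against 21.3%.

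Of the 75 regions, 49 lay within 1 kb of the end of another protein-coding gene alone, 5 at an end of a member and another gene, 1 at a member alone, and 20 (26.7%) over 1 kb from every protein-coding end. Of these 20, 15 were also over 1 kb from the ends of genes of every other kind. Together 73.3% were within 1 kb of a protein-coding end, against 61.4% of all 15876 WT regions on assembled chromosomes. Regions over 10 kb from such ends made up 12% near the plasma protein genes and 22.9% overall. The 75 regions lie within 100 kb of a protein-coding gene by definition, and the 15876 were not limited in that way. Median folds near these genes were 5.12 and 4.95, and over all WT regions 5.12 and 4.85.

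Of the 9 genes with empty ends and a region away from protein-coding ends, TTR, HPX and AHSG were grouped as carriers and C3 under complement. F2, FGL1, KNG1 and SERPIND1 were in the coagulation group, and ORM1 in the acute-phase group. TTR encodes transthyretin, the carrier of thyroid hormone and retinol-binding protein. It had 3 such regions, 59.6, 85.3 and 86.1 kb away and all within the gene B4GALT6. Their folds were 3.81 and 4.95, 7.29 and 3.59, and 3.32 and 5.47. Of the 4 mutant libraries, only V2084D library 2 had a peak over any of them, over the farthest. Another region, at an end of DSG2, was 93.4 kb away on the other side, with folds of 6.90 and 4.08.

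HPX, hemopexin, the heme scavenger, had a weak region 77.2 kb away with folds of 3.31 and 3.45, besides 3 regions at ends of other genes, the nearest at APBB1, 11.5 kb away. F2, prothrombin, had a region 87.0 kb away inside CKAP5, with folds of 4.86 and 4.24. KNG1, kininogen, had one 82.9 kb away with folds of 5.05 and 4.78, which lay at an annotated end of a gene that is not protein-coding. FGL1 had one 97.8 kb away inside MTUS1 with folds of 3.98 and 3.45. No mutant library had a peak over these 4 regions. AHSG, a carrier that binds calcium phosphate, had a single region in reach, 45.8 kb away inside TBCCD1, with folds of 3.99 and 4.37 and no mutant peak. ORM1 had one 79.1 kb away inside WHRN, with folds of 3.32 and 3.46 and no mutant peak.

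C3, the central complement component, had 2 regions away from protein-coding ends: 22.8 kb away inside TRIP10, with folds of 5.34 and 5.74, and 89.9 kb away inside CD70, with folds of 4.57 and 6.31. Its 2 nearest regions were at ends of GPR108, 16.2 and 17.4 kb away, and the nearer had folds of 8.31 and 5.30 and peaks in all 4 mutant libraries. SERPIND1 encodes heparin cofactor II, a thrombin inhibitor. It had 3 regions away from protein-coding ends, and the strongest, chr22:20701827-20703215, was 70.9 kb away with folds of 9.96 and 9.11. That region was 4.48 kb from the nearest protein-coding end, at PI4KA, and 0.713 kb from an annotated end when genes of every kind were counted.

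Of the 6 genes with empty ends whose distal WT region was strongest, SERPIND1 had that region away from protein-coding ends, and the other 5 had it at ends of other genes. F10 and F7, proteases that start and carry the clotting cascade, shared chr13:113208198-113209494, at ends of CUL4A and PCID2, with folds of 13.03 and 10.93. It was 58.7 kb from F10 and 87.5 kb from F7. ITIH1 and ITIH3, heavy chains that stabilise hyaluronan, shared chr3:52705345-52706511, at ends of SPCS1 and GLT8D1, 71.1 and 88.3 kb away, with folds of 11.5 and 8.38. CP, ceruloplasmin, the copper-carrying ferroxidase, had chr3:149085680-149087032 at HLTF, 75.4 kb away, with folds of 9.14 and 7.91.

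Other genes with empty ends had weaker regions in reach, each at another gene. HP, haptoglobin, which binds free hemoglobin, had 1 at ends of DHX38 and TXNL4B, 32.7 kb away, with folds of 3.32 and 3.56 and no mutant peak. FGA and FGB, the alpha and beta chains of fibrinogen, shared 1 at an end of DCHS2, 90.8 and 70.7 kb away, with folds of 6.23 and 3.96 and no mutant peak. The nearest regions of F5, SERPINC1, ITIH2, ITIH4, APOH, AMBP, RBP4 and APOA4 also lay at ends of other genes or, for APOA4, at APOA1, between 12.4 kb (APOA4) and 95.4 kb (RBP4) away.

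For 10 genes no WT region was in reach. These were ALB, AFP, APOB, C8A, F9, FGG, PLG, CRP, SERPINA1 and SERPINA3, which include the main carrier protein of adult plasma (ALB), its fetal relative (AFP), the scaffold of low-density lipoprotein (APOB) and the main inhibitor of neutrophil elastase (SERPINA1). The nearest WT region was 112 kb from FGG, 145 kb from ALB and from SERPINA3, 177 kb from AFP, 181 kb from PLG, 202 kb from SERPINA1, 208 kb from C8A, 209 kb from CRP, 350 kb from APOB and 368 kb from F9. ALB, APOB, F9, CRP and SERPINA3 had no peak of any of the 6 libraries in reach. AFP and FGG each had 1 peak in WT library 2 and none in WT library 1. C8A had 2 peaks in each WT library, at places that did not overlap. The median distance to the nearest WT region was 59.1 kb over the 46 genes and 0 over all genes.

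Other genes of the liver programme were taken from lists chosen with earlier results of these data known. Among 62 other liver plasma protein genes, 17 had an occupied end, 43 had a WT region in reach, and 26 of the 45 with empty ends had one in reach. Their strongest end regions were at INHBE (7.25 and 7.12), C8G (5.60 and 5.59), MST1 (5.98 and 5.53) and THPO (8.05 and 5.40). Among 41 genes of hepatocyte metabolism and transport, 6 had an occupied end, 26 had a region in reach, and 20 of the 35 with empty ends had one in reach. The strongest were at HPD (6.03 and 5.62), OTC (5.56 and 7.76), GLS2 (4.61 and 4.70) and ASS1 (4.31 and 4.37). Of 32 liver transcription factor genes, 26 had an occupied end and 29 had a region in reach, led by ESRRA (10.66 and 10.98), NR1H3 (8.05 and 7.65), NR2F2 (7.06 and 6.33) and GATA6 (6.29 and 8.54). The shares at ends were thus 27.4%, 14.6% and 81.2%, beside 23.9% for the 46 genes and 61.5% for all genes.

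Fewer peaks were listed near the plasma protein genes in each mutant library than in either WT library. WT libraries 1 and 2 had 122 and 114 peaks within 100 kb of a member, V2084D had 24 and 58, and V2084D with STUB1 knockdown had 49 and 29. Both WT libraries lay above all 4 mutant libraries, and the 2 mutant groups overlapped. The mean log2 number was lower in V2084D than in WT by 3.16-fold (differences between single libraries from -2.35 to -0.97 on the log2 scale), with p = 0.333 by a two-sided exact permutation test, 0.5 after adjustment over 3 comparisons. That is the smallest p that 2 libraries against 2 allow. The STUB1 knockdown group differed from V2084D by 0.01 on the log2 scale (exact permutation p = 1), with single-library differences from -1 to 1.03. It was 3.13-fold below WT (exact permutation p = 0.333, adjusted 0.5). These differences moved with the peaks counted. V2084D against WT was -3.27 on the log2 scale over peaks with −log10 q of at least 5, -2.89 over peaks with fold of at least 5 (exact permutation p = 0.333 each) and -0.06 over lists of equal length (exact permutation p = 1). STUB1 knockdown against V2084D was 1.40, 1.31 and 0.32 in the same settings (exact permutation p = 0.667, 0.333 and 0.333), and in the last 2 the groups did not overlap.

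The whole lists were shorter in the mutants as well. Over all listed peaks, the share of each list near these genes overlapped between the groups. The WT libraries had 0.442% and 0.430%, the V2084D libraries 0.400% and 0.468%, and the STUB1 knockdown libraries 0.550% and 0.435%. The WT values lay between those of V2084D. V2084D differed from WT by -0.00192 percentage points (single-library differences from -0.0422 to 0.0384, exact permutation p = 1). STUB1 knockdown differed from V2084D by 0.0586 points and from WT by 0.0567 points (exact permutation p = 0.667 each, adjusted 1). Over the stronger peaks the shares stood further apart. With fold of at least 5 they were 0.456% and 0.491% in the WT libraries (46 and 43 peaks near these genes), 0.226% and 0.346% for V2084D (4 and 9 peaks), and 0.729% and 0.557% for STUB1 knockdown (22 and 10 peaks), and no 2 groups overlapped. V2084D then differed from WT by -0.188 points, STUB1 knockdown from V2084D by 0.357 and from WT by 0.170 (exact permutation p = 0.333 each). With −log10 q of at least 5 the differences were -0.164, 0.270 and 0.106 points (exact permutation p = 0.333, 0.333 and 0.667), from 2 and 10 peaks near these genes for V2084D and 20 and 7 for STUB1 knockdown.

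**Figure D2:**
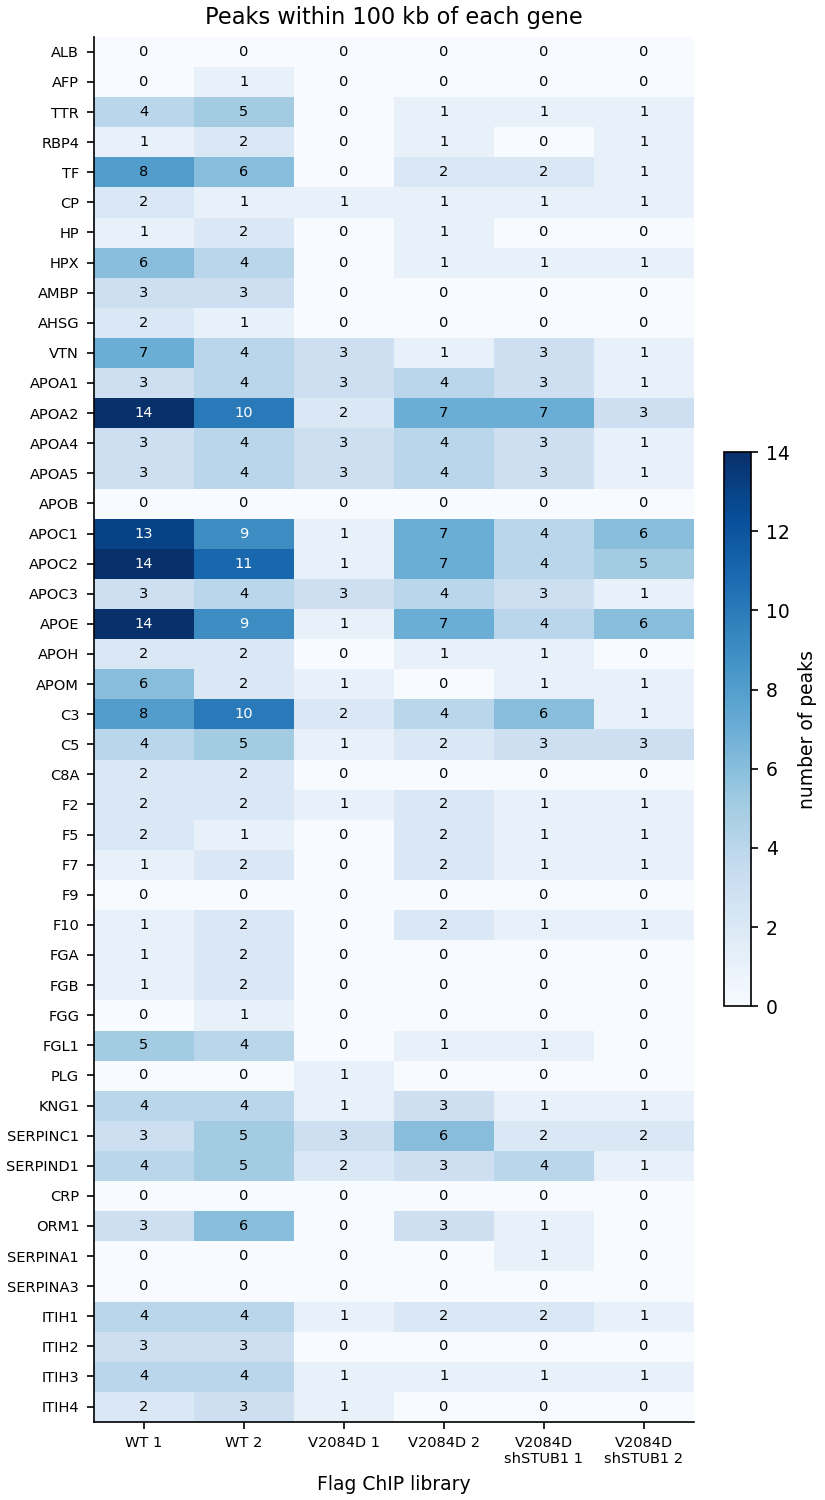
The number of peaks within 100 kb of each gene (rows) is given for each of the 6 Flag ChIP libraries (columns), and darker blue is more peaks. APOA2, APOC1, APOC2 and APOE have between 9 and 14 peaks in the WT libraries, and the rows of ALB, APOB, F9, CRP and SERPINA3 are 0 throughout.

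Regions shared by both libraries of a mutant group were rare at the ends of these genes. For V2084D, 4 of 46 genes (8.70%) had one within 10 kb of an end, C5, APOA1, APOA5 and APOC3, against 19.7% of all genes, and 16 (34.8%) had one in reach, against 42.6%. With STUB1 knockdown, C5 and VTN had one at an end (4.35%, against 21.3%), and 21 genes (45.7%) had one in reach, against 45.3%. C5 was the 1 gene with an occupied end in all 3 groups.

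Of the 75 WT regions near the plasma protein genes, V2084D library 1 had a peak over 28.0% (95% Wilson interval 19.10 to 39.04) and library 2 over 53.3% (42.2 to 64.2). The STUB1 knockdown libraries had peaks over 50.7% (39.6 to 61.7) and 32.0% (22.5 to 43.2). Over all WT regions the values were 27.7%, 46.8%, 41.7% and 31.5%, each inside the matching interval. The intervals cover the counting of regions only. No mutant library had a peak over 25 of the 75 regions (33.3%, against 34.8% of all WT regions), and all 4 had one over 9 (12%, against 13.1%). These 9 included the regions of C5, EIF4A2 near KNG1, ARHGAP1 near F2, GPR108 near C3 and BUD13 near APOA5.

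Coverage went with the strength of the WT region. Regions were put in 3 bins by their lower WT fold, with limits that split all WT regions about evenly. In the strongest bin, 27 of the 75 regions, the V2084D libraries covered 48.1% and 77.8% and the STUB1 knockdown libraries 74.1% and 55.6%. In the weakest bin, also 27 regions, they covered 14.8% and 33.3%, and 37.0% and 7.41%. Over all WT regions the strongest bin was covered to 46.4%, 69.1%, 63.7% and 51.4% in the same order. The weakest bin of all WT regions was covered to 14.7%, 29.9%, 25.1% and 16.3%. The order of the libraries was the same near the plasma protein genes as overall in the strongest bin and differed in the weakest. Only 1 of the 75 regions had no V2084D peak and a peak in both STUB1 knockdown libraries (1.33%), and 0 had the reverse. Over all WT regions the shares were 2.49% and 2.64%.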

How the data were processed

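Flag ChIP-seq peak lists of 6 libraries in 3 groups of 2 were used, with groups taken from the sample titles. The authors called 1 list per library on build hg38; the submitters' processing notes name Trimmomatic, Bowtie2 and MACS2, with SAMtools, Picard, bedtools and deepTools, all without versions, and the control used in the calls is not given in the sources used here. The deposited lists give for each peak a fold enrichment (a ratio, within its library), −log10 p and −log10 q values, a display score and the summit offset. Peaks were filtered no further in the main analysis.

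Overlapping peaks of both libraries of a group (at least 1 bp) were joined into regions. Distances ran to gene models of RefSeq GRCh38.p14, the assembly that hg38 names, and shares of the 46 genes were set beside those of all 20037 protein-coding genes. A RefSeq gene model spans all its transcripts, so an annotated end can lie far from the start most used. Numbers of peaks were compared over libraries with two-sided exact permutation tests and Benjamini-Hochberg adjustment over 3 pairs of groups. Python 3.11.15, pandas 2.3.3, numpy 2.4.6 and scipy 1.17.1 were used, and the interval steps were tested on simulated peaks, where 200 of 200 planted genes were found.

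The 46 genes and the lists of other liver genes were chosen with earlier results of these data known. Genes named by plan were those with a WT region within 10 kb of an end. ALB, AFP, TTR, SERPINA1, SERPINA3, FGA, FGB, FGG, APOA1, APOB, APOE, C3, TF and HP were named whatever they showed. The 6 genes with empty ends whose WT region in reach was strongest by the lower WT fold were also named. From each other list came at most 4 genes. Not every region in reach of the named genes, nor every mutant peak, is given. The genes of regions away from gene ends were named after their values were seen. Alternatives were other thresholds of q and fold, lists of equal length, other definitions of shared peaks, other windows, a replicate block and each library left out. No promoter was listed for TTR, CP, HP, APOA1, APOB, APOC3, C3, FGL1, SERPINC1 and ITIH2.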

Additional observations from a re-analysis of the deposited data

How the results depend on the processing

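The share of the 46 genes with an occupied end stayed below that of all genes in every setting run, from 2.17% against 21.0% (equal lists) to 39.1% against 73.8% (a peak in either WT library). Genes with empty ends had a region in reach more often than all genes with empty ends in every setting, from 42.2% against 30.7% to 75.9% against 63.8%. The counts themselves moved. Genes with an occupied end numbered 4 with −log10 q of at least 5, 5 with fold of at least 5, 1 with lists cut to the strongest 6000 peaks, 7 with an overlap of 50% of both peaks, 5 with summits within 200 bp, 18 with a peak in either WT library, and 13 to 17 with a WT library left out, the higher without WT library 1. Genes with a region in reach numbered 20 with equal lists. The mean coverage of WT regions by the V2084D libraries, 40.7%, was 11.1% with the q threshold, 17.9% with the fold threshold, 64.7% with equal lists, 19.3% with an overlap of 50%, and 26.6% to 53.3% with 1 library left out, the lowest without WT library 2; the cause was not tested.

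With equal lists, STUB1 knockdown against WT turned to 0.26 on the log2 scale. Within 10 kb, STUB1 knockdown against V2084D became -0.53 (log2) and -0.0146 percentage points, and against WT -0.0158 points. Leaving out 1 library, V2084D against WT ran from -0.0361 to 0.0323 points (above 0 without V2084D library 1 or WT library 1), STUB1 knockdown against V2084D from -0.62 to 0.65 (log2, below 0 without V2084D library 1 or STUB1 knockdown library 1), and STUB1 knockdown against WT from -0.000852 to 0.114 points (below 0 without STUB1 knockdown library 1).

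The labels number the libraries but do not say that numbers pair them. With the replicate number as a block, the log2 differences stayed at -1.66, 0.01 and -1.65 and those in points at -0.00192, 0.0586 and 0.0567. The exact sign-flip p was 0.5, 1, 0.5, 1, 1 and 0.5, where 0.5 is the smallest possible. Read depth is unknown, so a place without a peak is one where binding was not detected, not one shown to lack it.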

Other observations

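Some mutant peaks near the plasma protein genes lay where neither WT library had a peak. They were 1 of 24 (4.17%) and 8 of 58 (13.8%) in the V2084D libraries, and 3 of 49 (6.12%) and 1 of 29 (3.45%) with STUB1 knockdown. Over the whole mutant lists the shares were 11.5%, 21.3%, 7.96% and 7.94%. The V2084D library 1 peak, near PLG, had a fold of 4.96. The strongest of V2084D library 2, with a fold of 4.64, was near SERPINC1, which encodes antithrombin. SERPINC1 was among the genes with no fewer peaks in reach in V2084D than in WT: the WT libraries had 3 and 5, the V2084D libraries 3 and 6, and the STUB1 knockdown libraries 2 and 2. The STUB1 knockdown peaks were near SERPINA1, C3 and CP in library 1 and near TTR in library 2, with folds of 3.84, 4.03, 4.26 and 3.72. No 2 libraries shared any of these peaks.

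Of the WT peaks within 100 kb of a member, 37.7% in library 1 and 31.6% in library 2 had no overlapping peak in the other WT library, beside 36.6% and 33.3% of the whole lists.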
